A study of Mus musculus with 12 samples.

Results

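Mature microRNA (miRNA) levels were compared between wild-type mouse embryonic fibroblasts treated for 12 h with 2 ug/mL tunicamycin and untreated wild-type fibroblasts. The comparison was chosen by the array titles: 2 arrays of 12 h treated cells and 2 arrays of untreated cells, of 12 arrays in the series, with every mouse miRNA on the array as a feature. The fibroblasts were of the C57BL/6 background and of the genotype labelled ATF4WT (wild type, WT). The other arrays held WT cells treated for 24 h and ATF4KO fibroblasts (KO, lacking the transcription factor ATF4) that were untreated or treated for 12 h or 24 h, again 2 arrays each and the same tunicamycin dose. Per the series' design the 2 arrays of a group came from independent experiments; with so few arrays, precision is limited by their number. The labels do not say whether the cells were primary or immortalised, or whether each genotype was 1 line. Of 611 mouse miRNA names on the array, 145 were tested because some group had them well above background on both of its arrays, and 466 were too dim.

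Tunicamycin blocks the first step of N-linked glycosylation, so that unfolded glycoproteins collect in the endoplasmic reticulum (ER) and the unfolded protein response starts. One arm of that response runs from the ER kinase PERK through phosphorylation of the translation factor eIF2α to ATF4, which switches on amino acid transport, redox defence and, when stress lasts, cell death genes. A mature miRNA is a short RNA that guides Argonaute to messenger RNAs through its seed, the bases from position 2 to position 8, so miRNAs that share a seed share many predicted targets. miRNAs made from 1 primary transcript form a genomic cluster.

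The sequences of the miRNAs on which the results turn are printed with the seed in capitals, 5′ to 3′, as RefSeq gives them with the GRCm38.p6 mouse assembly. Of the 145 tested names 103 matched a RefSeq mature miRNA, and so did 35 of the called miRNAs described below. The first set carries the seed AGCAGCA, of which 5 of 6 tested members were called lower.
miR-322: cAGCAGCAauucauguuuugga
miR-497: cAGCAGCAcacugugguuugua
miR-195: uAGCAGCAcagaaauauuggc
miR-16: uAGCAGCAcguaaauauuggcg
miR-15a: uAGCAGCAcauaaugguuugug
miR-15b: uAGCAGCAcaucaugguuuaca
Mir497 and Mir195a lie together at chr11:70234730-70235082 on the plus strand, Mir16-1 and Mir15a at chr14:61631936-61632096 on the minus strand within the bounds of the non-coding gene Dleu2, and Mir15b and Mir16-2 at chr3:69009775-69009939 on the plus strand within Smc4. miR-322 comes from chrX:53054306-53054327 on the minus strand. The probe of miR-16 cannot tell its gene copies apart.

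The next set shows pairs with 1 seed whose tested members were all called lower, namely the miR-146, miR-34 and miR-26 pairs.
miR-146a: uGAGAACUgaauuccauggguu
miR-146b: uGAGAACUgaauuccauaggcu
miR-34a: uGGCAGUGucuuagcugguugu
miR-34b-5p: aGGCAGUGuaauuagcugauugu
miR-26a: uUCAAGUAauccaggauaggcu
miR-26b: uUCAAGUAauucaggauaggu
Mir146 is at chr11:43374435-43374456 (minus strand), Mir146b at chr19:46342790-46342811 (plus strand), Mir34a at chr4:150068473-150068494 (plus strand) and Mir34b at chr9:51103610-51103632 (minus strand). All 3 miR-26 genes lie within genes of C-terminal domain phosphatases: Mir26a-1 in Ctdspl, Mir26a-2 in Ctdsp2 and Mir26b in Ctdsp1.

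The last set shows shared seeds whose members did not move alike: miR-221 with miR-222, and the AAAGUGC members of the miR-106b and miR-17 clusters. The increase, miR-365, and miR-210 and miR-21, whose seeds no other matched miRNA shared, are printed with them.
miR-222: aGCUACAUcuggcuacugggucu
miR-221: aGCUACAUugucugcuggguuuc
miR-106b: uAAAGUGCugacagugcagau
miR-93: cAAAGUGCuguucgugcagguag
miR-20a: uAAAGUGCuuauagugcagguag
miR-365: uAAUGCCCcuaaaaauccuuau
miR-210: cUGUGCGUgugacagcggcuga
miR-21: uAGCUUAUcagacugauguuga
Mir221 and Mir222 lie at chrX:19146307-19146923 on the minus strand. Mir25, Mir93 and Mir106b lie at chr5:138165332-138165807 on the minus strand within Mcm7, a replication helicase gene, and the miR-17 cluster lies at chr14:115043721-115044496 on the plus strand. miR-365 has a copy at chr16:13453895-13453916, in a cluster with Mir193b, and another at chr11:79726467-79726488.

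One treated array stood apart and is described before the results. The level of a miRNA is its summed processed signal over the 75th percentile, within the array, of 82 miRNAs detected on all 12 arrays, on a log2 scale with a floor at -4.96. The pooled SD between the arrays of a group was 0.15 for untreated WT and 1.23 for WT at 12 h. On 18 tested miRNAs the 12 h arrays differed by more than 2 log2 units, by 2.26 to 6.47, and all 18 were higher on replicate 2. miR-574-3p, for example, measured -2.70 and -3.37 on the untreated arrays, -4.96 on 12 h replicate 1 and 1.51 on 12 h replicate 2. Of these 18, 11 belong to the miR-466, miR-669, miR-467 and miR-297 names, most of which are encoded in a repeat in the Sfmbt2 gene. All 18 were also higher by more than 1 on replicate 2 than on replicate 1 of KO cells at 12 h. KO 12 h replicate 2 was on the same slide and in the same scan run as WT 12 h replicate 2. So were the 24 h replicate 2 arrays of WT and KO cells. In WT cells at 24 h miR-574-3p was also higher on replicate 2 than on replicate 1. A control probe, dmr_31a, gave 676 intensity units on WT 12 h replicate 2 and 998 on KO 12 h replicate 2, against 13.7 to 84.4 on the other 10 arrays. Those 10 include both 24 h replicate 2 arrays, so this probe was not raised on every array of that slide and scan run. The other control probes read, dmr_285, dmr_3 and dmr_6, separated the 12 h replicate 2 arrays less or not at all: dmr_285 gave 246 and 352 against 62.1 to 332, and the others lay within the range of the other arrays. Of the 5 such miRNAs with a RefSeq sequence 4 contain ACACAC or UGUGUG in the mature strand, against 2 of the other 98, a pattern looked for after the values were seen. The part of this array in the results below was not tested beyond leaving it out.

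The 4 untreated arrays shared 1 slide and the 8 treated arrays shared the other, so a slide effect and a treatment effect cannot be told apart in any value below, except between arrays of 1 slide. Each of the 4 scan runs held 1 treatment. Fibroblast-typical miRNAs bore out the label: 10 of 11 such names on the array were well above background on at least 1 of the 4 arrays. Of the marker lists for epithelium, blood, endothelium, neural cells and liver, none had a member well above background on these arrays. The summed level of any of those lists was at most 0.0343 of the scaling unit on any of the 4 arrays. Among muscle names miR-206 was detected, and among pluripotent names miR-294.

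**Figure D1:**
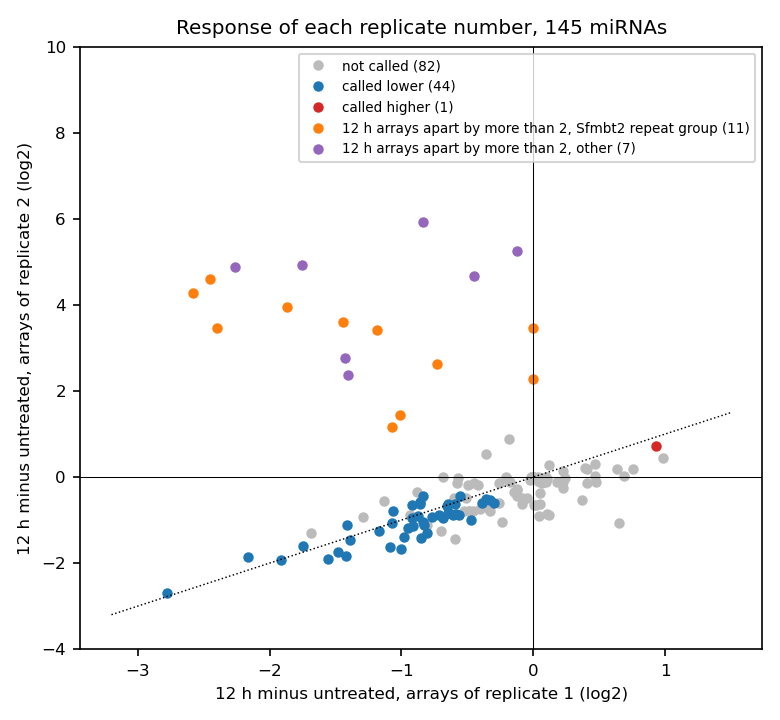
Each point is 1 of the 145 tested miRNAs; the x axis is 12 h minus untreated (log2) from the arrays numbered replicate 1 and the y axis the same from those numbered replicate 2, with equality dotted. The 18 orange and purple points, 12 h arrays apart by more than 2, lie high on replicate 2 only, and the 44 miRNAs called lower (blue) lie below 0 on both axes.

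After 12 h of tunicamycin more miRNAs were called lower than higher in WT fibroblasts, on levels relative to the scaling set. Treatment and slide cannot be told apart in these calls. The test called 44 miRNAs lower, led by miR-146a, miR-322, miR-34c, miR-210 and miR-146b, and 1 higher, miR-365. Of all tested miRNAs 44 of 145 (30.3 percent) were called lower. Among them were both miR-146s, all 3 tested miR-34s, both miR-26s and 5 of 6 miRNAs with the AGCAGCA seed. The miR-106b cluster was called lower while no member of the miR-17 cluster was called, and miR-222 was called lower while miR-221 of the same primary transcript was not called.

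The test was limma's moderated test on log2 levels with Benjamini-Hochberg adjustment over the 145 miRNAs and a threshold of 0.05. It called 45 of 145 (31.0 percent), of which 44 were lower (30.3 percent) and 1 higher (0.690 percent). Without adjustment 58 had p under 0.05. All 45 had arrays that did not overlap between the groups, as did 88 of all 145 (60.7 percent, with 53.8 percent lower). The median difference over the 145 miRNAs was -0.32, and 25 of the lower calls were more than 0.5 below that median. The arrays of replicate number 1 and those of replicate number 2 share no array, and across the 145 miRNAs their differences correlated at -0.14. Over the 127 miRNAs whose 12 h arrays lay within 2 log2 units of each other the value was 0.80. That set was chosen on the same arrays, which favours a high value. Both values are across miRNAs, which are not independent replicates.

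The number of calls and the balance between lower and higher rested on the scaling and on single arrays. The 45 calls became 0 with the 75th percentile over all miRNAs as the scale, 3 with median scaling and 5 with quantile normalization by the same limma test, while 9, 23 and 21 miRNAs had an unadjusted p under 0.05. They also became 0 with normexp background correction (2 unadjusted) and 3 with the scanner software's total gene signal. Among the 82 miRNAs that set the scale 7 were among the 18 that differed by more than 2 between the 12 h arrays. With those left out of the scaling, an alternative chosen after the data were seen, the median difference was 0.00 and 28 miRNAs were called, 21 lower and 7 higher. The 7 higher were miR-365 (1.20), miR-193, miR-221 (0.84), miR-27a (0.74), miR-30a* (0.74), miR-31* (0.63) and miR-23a (0.51). Leaving out untreated replicate 1 left 19 calls, leaving out untreated replicate 2 left 25, and leaving out 12 h replicate 2 left 25, of which 4 were higher. The calls of 18 miRNAs held whichever 1 of the 12 arrays was left out, among them miR-322, miR-34c, miR-210, miR-16, miR-195, miR-497, miR-26a, miR-26b, miR-106b, miR-93, miR-130a, miR-148a and miR-21. miR-34c, miR-195 and miR-497 lay at the floor on both 12 h arrays, so leaving out either could not change the size of their falls. miR-93 and miR-148a turned above 0 with the total gene signal (0.56 and 0.57). Of the 44 lower calls 43 were below 0 under all 6 scalings. miR-21 was below 0 under 5 and at 0.00 after quantile normalization. It had the highest level on every untreated and 12 h WT array, and quantile normalization gives the top miRNA of each array the same value. Its 0.00 was therefore set by the method and could not test its fall.

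**Figure D2:**
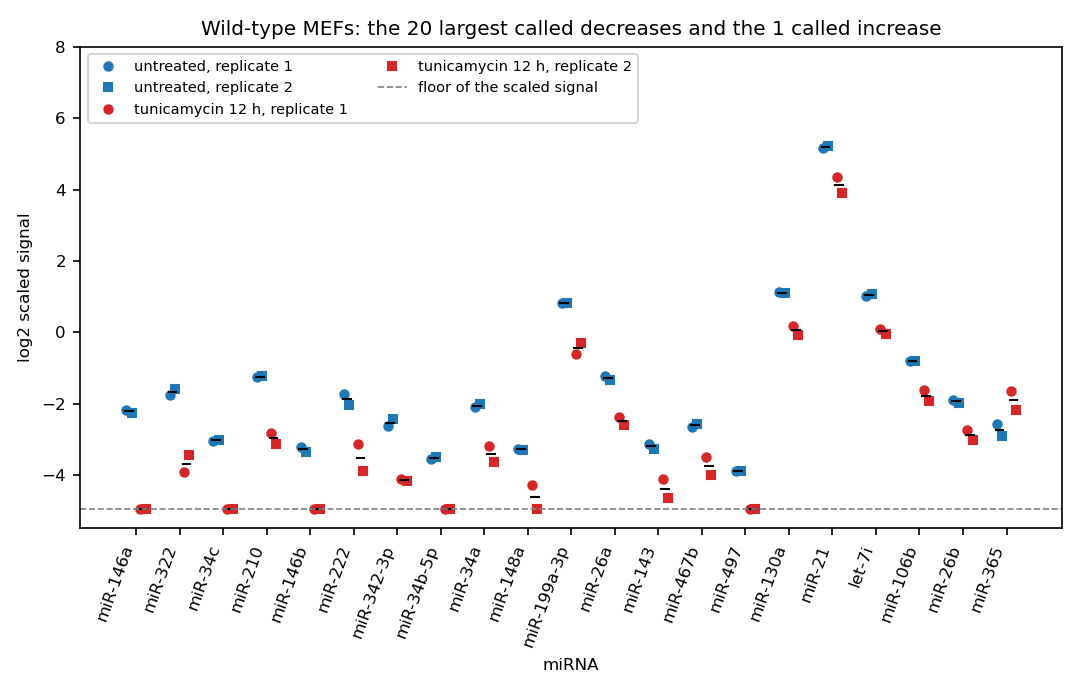
Log2 scaled signal (y axis) of the 20 largest called decreases and of miR-365 in the 4 arrays, with untreated arrays in blue, 12 h arrays in red, circles for replicate 1, squares for replicate 2 and bars for group means. The dashed line is the floor at -4.96, on which miR-146a, miR-34c, miR-146b, miR-34b-5p and miR-497 lay on both 12 h arrays.

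The AGCAGCA family, whose members are known as brakes on the cell cycle through cyclins and as inhibitors of Bcl2, had 5 of 6 members called lower and a median difference of -0.92, beside 44 of 145 called lower (30.3 percent) and a median of -0.32 over all tested miRNAs. miR-322, the mouse counterpart of human miR-424, measured -1.76 and -1.58 in untreated cells and -3.92 and -3.45 at 12 h. The arrays were well separated, and the fall was 2.01 ± 0.28 (SE, n = 2 per group; adjusted p = 0.00271), or 4.04-fold. miR-16 measured -0.01 and 0.00 untreated and -0.93 and -0.95 at 12 h, and fell by 0.94 ± 0.12 (adjusted p = 0.00213). Its 2 groups stood well apart. miR-15a fell by 0.82 ± 0.23 (adjusted p = 0.0331), a call lost in 9 of 12 omissions of 1 array. miR-15b, from the other miR-16 locus, was the member not called, at -0.64 ± 0.25 (adjusted p = 0.104). miR-497 and miR-195, neighbours on chromosome 11, were close to the floor in untreated cells (-3.89 and -3.90 for miR-497, -4.09 and -4.04 for miR-195) and not well above background at 12 h. They were at least 2.05-fold and at least 1.82-fold lower (adjusted p = 7.66e-05 and 0.000144). A fold given as "at least" sets the dim arrays at the lowest level that counted as detected, and where arrays lie at the floor any spread under it is missing from the SE and p. It is a bound under the main processing only. Among the untreated and 12 h groups, only untreated WT cells had miR-497, miR-195, miR-146a or miR-467e well above background on both arrays. Within those groups the detection rule admitted them only where they were high, so a fall was favoured beforehand. miR-497 and miR-195 are among the 5 calls of this family. Among the alternatives the miR-497 difference was as small as -0.028 and the miR-146a difference as small as -0.60. All 6 members were below 0 under all 6 scalings, as were 68 of all 145 tested miRNAs.

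The miR-34 family, transcribed under p53 and tied to cell cycle arrest, had 3 of 3 tested members called lower, with a median of -1.43, beside 30.3 percent lower over all tested miRNAs. miR-34a measured -2.11 and -2.02 untreated and -3.19 and -3.65 at 12 h. Its groups did not overlap, and it fell by 1.36 ± 0.41 (adjusted p = 0.0456), a call that held in 2 of 12 omissions of 1 array. miR-34c, made with miR-34b from another locus than miR-34a, measured -3.04 and -3.03 untreated and was at the floor on both 12 h arrays, at least 3.71-fold lower (adjusted p = 0.000984). miR-34b-5p was at least 2.63-fold lower (adjusted p = 0.00900), a call lost without either untreated array, where the largest adjusted p was 0.0550.

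The miR-146 pair, induced by NF-κB and known to damp innate immune signalling through Traf6 and Irak1, was detected in untreated cells and not at 12 h. miR-146a measured -2.18 and -2.27 untreated and was at the floor in both treated arrays. It was at least 6.51-fold lower (adjusted p = 0.0110), and the call was lost without either untreated array or without 12 h replicate 2 (adjusted p up to 0.0634). As for miR-497, the detection rule favoured a fall of miR-146a. miR-146b measured -3.21 and -3.35 untreated and was at least 3.12-fold lower (adjusted p = 0.00774), a call lost without untreated replicate 1 (adjusted p = 0.0571). miR-155, which is also induced in inflammation and has another seed, was at -0.32 ± 0.26 (adjusted p = 0.449).

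Among single miRNAs, miR-210, the best known hypoxia-induced miRNA and a repressor of the iron-sulphur scaffold gene Iscu, measured -1.26 and -1.24 untreated and -2.82 and -3.13 at 12 h. That is a fall of 1.72 ± 0.18 (adjusted p = 0.000984), or 3.30-fold. miR-21, which represses Pdcd4, made up 32.7 and 34.0 percent of the summed mouse miRNA signal of the untreated arrays and 25.8 and 15.2 percent at 12 h. Its level measured 5.17 and 5.21 untreated and 4.37 and 3.91 at 12 h. It fell by 1.06 ± 0.19 (adjusted p = 0.00663). miR-342-3p, encoded within Evl, fell by 1.61 ± 0.36 (adjusted p = 0.0153), a call lost without either untreated array or without 12 h replicate 2 (adjusted p up to 0.0823). miR-130a measured 1.12 and 1.11 untreated and 0.17 and -0.07 at 12 h, and fell by 1.06 ± 0.14 (adjusted p = 0.00213), while miR-301a, which shares its seed, was at -0.35 ± 0.28 (adjusted p = 0.437).

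Among the 103 tested miRNAs with a RefSeq sequence, 14 seeds had 2 members. Of these seeds 5 had both called, 5 had 1 called and 4 had neither, beside 45 of 145 miRNAs called (31.0 percent) over all tested. Tested miRNAs without such a sequence, among them miR-34c and miR-23b, were left out of these counts. The miR-26, miR-148a and miR-103 pairs, with the miR-146 pair and miR-34a with miR-34b-5p, were the 5 with both called. miR-26a, known to act on Ezh2, measured -1.22 and -1.34 untreated and -2.39 and -2.60 at 12 h, a fall of 1.21 ± 0.15 (adjusted p = 0.00213). miR-26b fell by 0.94 ± 0.16 (adjusted p = 0.00663). miR-148a and miR-152, which repress Dnmt1, were called lower (adjusted p = 0.00697 and 0.00222), with 1 of the 12 h arrays well above background for each. miR-148a measured -3.29 on both untreated arrays, -4.29 on 12 h replicate 1 and the floor on replicate 2. miR-152 measured -3.89 and -4.17 untreated and lay at the floor on both 12 h arrays, so the sizes of these falls rest on the floor. Both went above 0 in the total gene signal, to 0.57 and 2.13, and miR-152 also with normexp (0.013); the cause was not tested. miR-107 and miR-103, encoded within the pantothenate kinase genes Pank1, Pank2 and Pank3, fell by 0.80 ± 0.14 (adjusted p = 0.00629) and 0.61 ± 0.17 (adjusted p = 0.0340). The miR-103 call was lost in 8 of 12 omissions of 1 array.

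**Figure D3:**
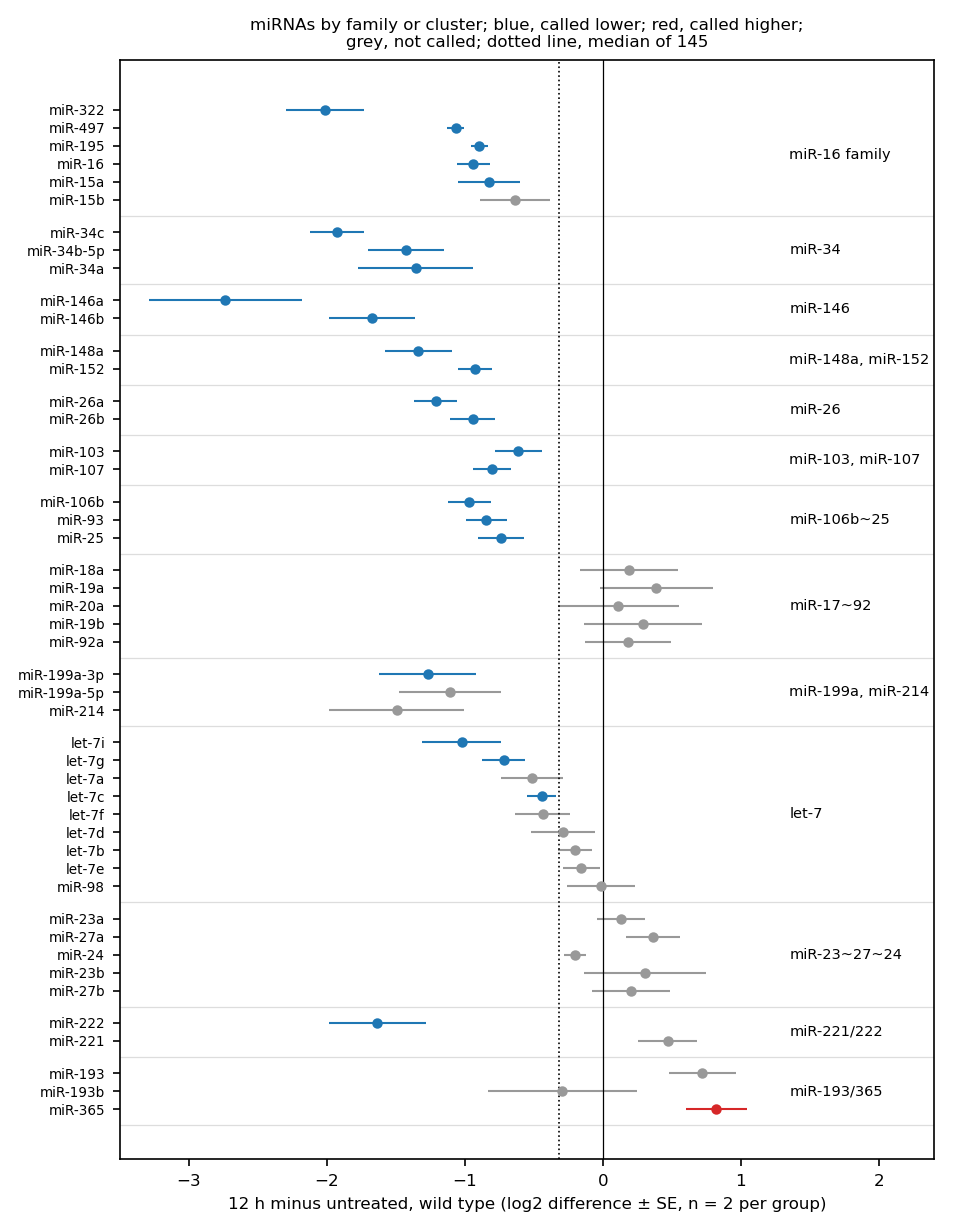
Difference 12 h minus untreated in WT cells (x axis, log2; points with SE, n = 2 per group), by seed family or cluster. Blue marks a call lower, red a call higher and grey no call; the dotted line is the median of the 145 miRNAs, -0.32, and the miR-16 family (the AGCAGCA seed), miR-34, miR-146, miR-148a with miR-152, miR-26, miR-103 with miR-107 and miR-106b groups lie to its left.

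The miR-106b cluster and the miR-17 cluster, paralogs with shared seeds that push cells through the cycle by repressing Cdkn1a and Bcl2l11 (Bim), gave different counts of calls. The miR-106b cluster has been reported to fall under ER stress through PERK. All 3 of its members were called lower, although miR-93 turned above 0 (0.56 in the total gene signal, 0.34 in the authors' value table). The share called lower over all tested miRNAs was 44 of 145 (30.3 percent), and both clusters are small beside it. miR-106b measured -0.81 and -0.82 untreated and -1.63 and -1.92 at 12 h, a fall of 0.97 ± 0.16 (adjusted p = 0.00552). miR-93 fell by 0.84 ± 0.15 (adjusted p = 0.00663) and miR-25 by 0.74 ± 0.17 (adjusted p = 0.0163), the latter lost without either untreated array or 12 h replicate 2 (adjusted p up to 0.0814). In the miR-17 cluster 0 of 6 tested members were called by limma, with differences from -0.38 for miR-17* to 0.39 for miR-19a. miR-20a, with the seed of miR-106b and miR-93, measured -0.62 and -0.61 untreated and -0.38 and -0.63 at 12 h (0.11 ± 0.44, adjusted p = 0.948), and the groups overlapped. miR-92a, with the seed of miR-25, was at 0.18 ± 0.31 (adjusted p = 0.772). Under the other scalings the median of the 9 tested members of these clusters and their paralogs ran from -0.27 (quantile) to 0.49, while the 3 of the miR-106b cluster were below 0 in all 6. The difference between the clusters was not tested as such.

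miR-222 and miR-221 come from 1 primary transcript, share the seed GCUACAU and repress Cdkn1b (p27). miR-222 measured -1.72 and -2.04 untreated and -3.14 and -3.89 at 12 h, a fall of 1.63 ± 0.35 (adjusted p = 0.0139) that was lost without untreated replicate 1 or 12 h replicate 2 (adjusted p up to 0.0908). miR-221 measured -1.38 and -1.33 untreated and -0.62 and -1.15 at 12 h, above both untreated arrays, at 0.47 ± 0.21 (adjusted p = 0.152). miR-222 was below 0 and miR-221 above 0 under all 6 scalings, and miR-221 was called higher in the scaling without the discordant miRNAs.

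The let-7 family, which represses growth genes such as Hmga2 and Lin28, had 3 of 9 members called lower (let-7i, let-7g and let-7c), a share near the 30.3 percent over all tested miRNAs, and a median of -0.43. let-7i measured 1.01 and 1.08 untreated and 0.10 and -0.06 at 12 h, a fall of 1.02 ± 0.29 (adjusted p = 0.0340) that held in 2 of 12 omissions of 1 array. let-7g fell by 0.72 ± 0.16 (adjusted p = 0.0145) and let-7c by 0.44 ± 0.10 (adjusted p = 0.0186). Both were lost without untreated replicate 2 or 12 h replicate 2, let-7g also without untreated replicate 1 and let-7c without 12 h replicate 1. The other 6 ranged from -0.51 for let-7a to -0.01 for miR-98, and the family's median came to -0.06 in the scaling without the discordant miRNAs.

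miRNAs typical of fibroblasts and mesenchyme had 5 of 10 tested names called lower: miR-21, miR-143, miR-199a-3p, miR-199b* and miR-22, beside 44 of 145 over all tested miRNAs. miR-143 turned above 0 (0.53 in the total gene signal, 0.31 in the authors' value table). miR-214 lies in Dnm3os, a non-coding gene needed for skeletal growth, and miR-199a has a copy there and another within Dnm2, which the probe cannot tell apart. miR-199a-3p measured 0.81 and 0.82 untreated and -0.60 and -0.30 at 12 h, a fall of 1.27 ± 0.35 (adjusted p = 0.0335) that was lost in 8 of 12 omissions of 1 array. The other strand, miR-199a-5p, was at -1.10 ± 0.37 (adjusted p = 0.0615) and miR-214 at -1.49 ± 0.49 (adjusted p = 0.0572), both just outside the threshold although their groups did not overlap. miR-22 (-0.44 ± 0.14, adjusted p = 0.0479) and miR-199b* (-0.79 ± 0.24, adjusted p = 0.0469) were just inside it, and their calls were lost in 9 and 10 of 12 omissions of 1 array. The miR-29 family, which represses collagen genes, had 0 of 3 called, with differences of -0.64 to -0.27. In bulk RNA fewer cells of a type and less RNA per cell cannot be told apart.

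The list of miRNAs tied to the unfolded protein response in earlier studies had 6 of 17 tested names called lower and 0 higher, with a median of -0.45, beside 44 of 145 lower and a median of -0.32 over all tested miRNAs. The 6 were miR-34a, miR-222, miR-106b, miR-93, miR-25 and miR-96, the last a miRNA of sensory cells from the miR-183 cluster (-0.45 ± 0.12, adjusted p = 0.0304, lost in 9 of 12 omissions of 1 array). The lists were chosen with results of these data known, so their counts are descriptions. In the miR-232724 clusters 0 of 5 were called, with a median of 0.20 that stayed above 0 in all 6 scalings. The miR-30 family had 2 of 5 called lower (miR-30e and miR-30b) and the star strands, the less abundant arms of the hairpins, 1 of 11. miR-125a-5p, the counterpart of C. elegans lin-4, fell by 0.74 ± 0.12 (adjusted p = 0.00552) while miR-125b-5p, with the same seed, was at -0.24 ± 0.20 (adjusted p = 0.448).

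miR-365 was the increase that passed the test. It measured -2.56 and -2.90 untreated and -1.63 and -2.19 at 12 h, with both treated arrays above both untreated ones. The rise was 0.82 ± 0.22 (adjusted p = 0.0304), or 1.77-fold. The call was lost in 7 of 12 omissions of 1 array, where the rise was as small as 0.55, and the difference ran from 0.63 to 1.20 over the 6 scalings. miR-193, whose gene Mir193a lies near the second copy of Mir365 on chromosome 11, was next outside the threshold at 0.72 ± 0.24 (adjusted p = 0.0632). miR-193b, which shares a cluster with the other Mir365 copy, was at -0.29 ± 0.54 (adjusted p = 0.781).

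The 5 largest positive differences were not called. They were miR-1196 (2.57 ± 2.29), miR-207 (2.54 ± 2.53), miR-468 (2.12 ± 1.67), miR-466h (1.73 ± 1.25) and miR-877* (1.59 ± 2.23), with adjusted p from 0.395 to 0.691. Each was at the floor on 12 h replicate 1 and at or above -1.49 on replicate 2, so each of these means comes from the array that stood apart. In the Sfmbt2 repeat group, with a median of 0.69 over 16 tested names, 3 names were called lower: miR-467a, miR-467b and miR-467e. Over all tested miRNAs 44 of 145 (30.3 percent) were called lower. The summed level of all 39 names of the group on the array, 2.41 and 2.04 on the untreated arrays, was 0.921 on 12 h replicate 1 and 18.3 on replicate 2.

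In total 148 and 122 mouse miRNAs were well above background on the untreated arrays and 127 and 138 on the 12 h arrays. Of all 611 mouse names, 8 were well above background on both untreated arrays and on neither 12 h array, and 0 went the other way. They were miR-146a, miR-146b, miR-34c, miR-34b-5p, miR-497, miR-195, miR-467e and miR-99a. Of these miR-99a was not called (-0.54 ± 0.38, adjusted p = 0.380). The count stayed at 8 when every spot of a probe had to be flagged and was 9 with the software's own detection flag.

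**Figure D4:**
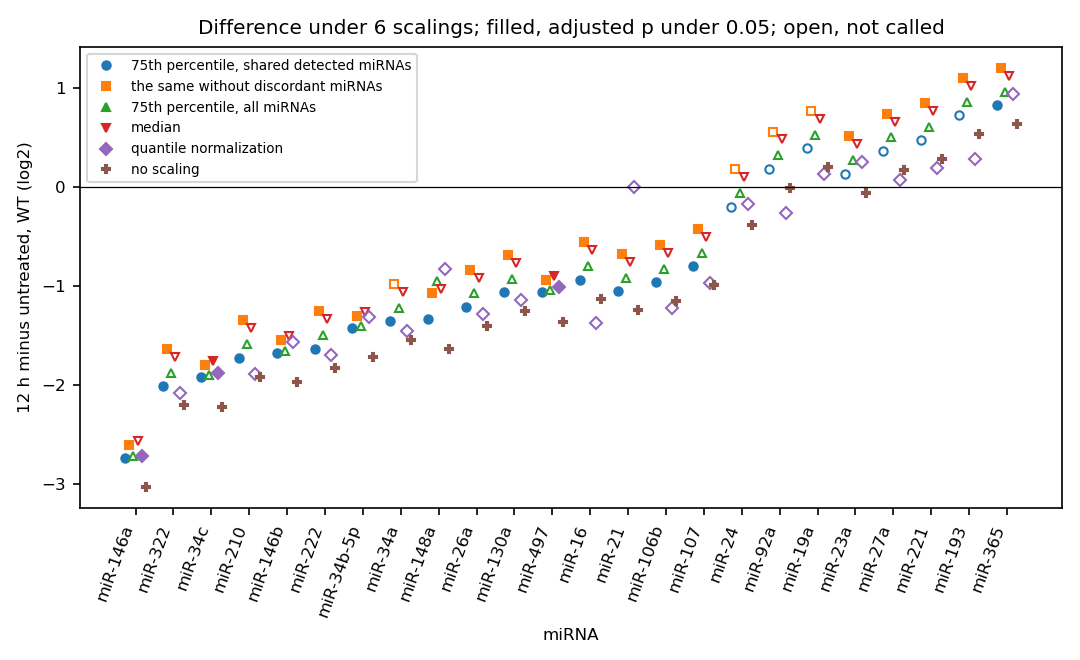
Difference 12 h minus untreated in WT cells (y axis, log2) of 24 miRNAs under 6 ways of scaling the arrays, with filled symbols for adjusted p under 0.05 and open ones for no call. The decreases on the left stay below 0 in every scaling except miR-21 under quantile normalization. That scaling gives miR-21, the highest on each array compared, the same value, so its 0 does not test its fall. The symbols between miR-24 and miR-23a lie on both sides of 0 for some miRNAs.

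Whether the WT response differed from that of cells without ATF4 was tested directly, as the KO difference at 12 h minus the WT difference. It passed for 33 of 145 miRNAs (22.8 percent), 30 above 0 (20.7 percent) and 3 below (2.07 percent). The median over all 145 was 0.49, and it ran from -0.27 to 0.18 under the other scalings and was -0.73 with normexp, so its sign rests on the processing. WT and KO arrays lay in different rows of each slide. miR-322 measured -2.09 and -1.97 in untreated KO cells and -1.97 and -1.88 at 12 h, against the fall of 2.01 in WT, and the difference of the responses was 2.12 ± 0.40 (adjusted p = 0.0147). miR-34c measured -3.60 and -3.66 untreated and -3.22 and -3.25 at 12 h in KO cells, where WT arrays were at the floor, a difference of 2.31 ± 0.28 (adjusted p = 0.00199). miR-16 measured -0.79 and -0.78 untreated and -0.85 and -0.62 at 12 h in KO cells, all above both WT arrays at 12 h, with a difference of 0.99 ± 0.17 (adjusted p = 0.00927). miR-21 measured 4.63 and 4.64 untreated and 4.57 and 4.53 at 12 h in KO cells, again above both WT arrays at 12 h (0.97 ± 0.26, adjusted p = 0.0383). Untreated KO cells lay below untreated WT cells for both, which in WT measured -0.01 and 0.00 for miR-16 and 5.17 and 5.21 for miR-21. Of the 27 WT calls that passed this test, 24 had both untreated KO arrays below both untreated WT arrays. Over all 145 tested miRNAs that held for 97, and the reverse for 25.

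For several of these both arrays of a group lay at the floor, so that the size of the difference rests on the floor and its SE leaves out any spread under it. miR-210 was at the floor on both untreated KO arrays and at -4.04 and -4.49 at 12 h, against -1.26 and -1.24 in untreated WT cells (difference of the responses 2.42 ± 0.25, adjusted p = 0.00104). miR-146b was at the floor in untreated KO cells and at -3.51 and -3.95 at 12 h, while WT cells at 12 h were at the floor (adjusted p = 0.00726). miR-146a, miR-195, miR-497 and miR-467a were at the floor on all 4 KO arrays, so their differences of the responses repeat the WT fall and say nothing of a KO response. Among the 3 below 0, miR-221 measured -1.43 and -1.40 untreated and -2.08 and -1.92 at 12 h in KO cells (-1.06 ± 0.30, adjusted p = 0.0443). miR-455 was at the floor on all 4 WT arrays and measured -3.69 and -3.76 in untreated KO cells, where it was at the floor at 12 h (adjusted p = 0.000407), so its value repeats the KO fall and says nothing of a WT response. miR-222, at 0.75 ± 0.50 (adjusted p = 0.379), and miR-365, at -0.70 ± 0.31 (adjusted p = 0.169), did not pass. Leaving out 1 array left 10 to 48 calls (10 without untreated KO replicate 1, 11 without KO 12 h replicate 2, 18 without untreated KO replicate 2, 19 without either untreated WT array and 20 without WT 12 h replicate 2), and other scalings left 0 to 23.

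**Figure D5:**
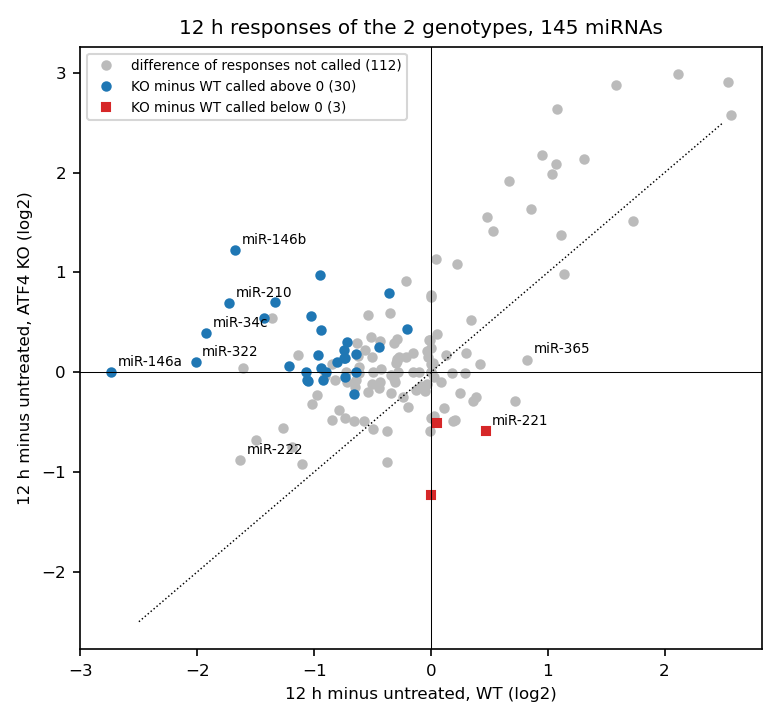
Difference 12 h minus untreated in WT (x axis) and in KO cells (y axis), both log2, for 145 miRNAs, with equality dotted. Blue points (30) passed the test of the difference with the KO value higher and red squares (3) with it lower; miR-146a, miR-322, miR-34c and miR-210 lie far left of 0 for WT and at or above 0 for KO.

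No miRNA passed the test between the treatment times in WT cells. The test of 24 h against 12 h, which uses no untreated array but shares the 12 h arrays, called 0 of 145 miRNAs by limma (0 percent), with 5 at an unadjusted p under 0.05. It called 0 under each alternative and each omission as well. miR-34c, miR-34b-5p, miR-146b, miR-497 and miR-195 were at the floor on both 24 h arrays. miR-26a measured -2.40 and -2.53 at 24 h (0.03 ± 0.15 against 12 h). miR-210 measured -2.72 and -2.66 (0.28 ± 0.18) and miR-322 -3.00 and -3.80 (0.28 ± 0.28). miR-146a was detected again on 1 of the 24 h arrays, at -3.35, and lay at the floor on the other (0.80 ± 0.55). miR-365 measured -1.93 and -1.94 (-0.02 ± 0.22). A test that calls none does not show that the levels were equal.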

How the data were processed

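Cy3-labelled total RNA was hybridised to 1-colour Agilent miRNA arrays, read by the authors with Agilent Feature Extraction 10.7.1.1 per the submitters' processing notes. Per the file headers, the processed spot signals are intensity values, background-subtracted and not scaled between arrays, and other deposited columns are flags of 0 or 1. The authors' value table holds log2 values, equal to the log2 of the software's total gene signal to within 1.16e-06, unscaled, with undetected miRNAs left blank.

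The signal of a miRNA was the sum over its 1 to 4 probes of the mean processed signal of 13000 non-control spots per array, outlier spots left out. A probe was well above background if at least 50 percent of its spots were flagged so. Signals were divided by the 75th percentile over 82 miRNAs, floored at 0.0322 (from the 1st percentile of detected signals on each array, the median array) and put on a log2 scale. A single limma 3.58.1 model in R 4.3.3 held all 6 groups (lmFit, eBayes, with 6 residual degrees of freedom and prior 1.03). The fit was also run on simulated data with equal spread on every array. Here the pooled SD was 0.15 in untreated WT and 1.23 in WT at 12 h. That run therefore does not show that 1 shared spread suits these arrays. The 39 viral names were left out. Alternatives covered background correction, measure, scaling, floor, filter, spread, the replicate block, the scan run and each array left out. The normexp alternative (offset 50) used median spot and background signals. The replicate numbers of the labels are not said to pair arrays. The deviations of the untreated and 12 h WT arrays correlated at -0.52 and those of the WT and KO 12 h arrays at 0.95; the numbers were not treated as pairs.

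All called miRNAs could be named, with statistics for the 20 largest each way, list members, shared seeds, the 5 largest positive differences and 3 on each side of the threshold. The comparison, the miRNA lists and the naming rule were chosen with earlier results of these data known.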

Additional observations from a re-analysis of the deposited data

Results flagged for a closer look

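For these called or listed miRNAs the 12 h responses of the genotypes passed limma's test of the KO response minus the WT response with Benjamini-Hochberg adjusted p under 0.05, in log2 units. The differences above 0 were miR-146b 2.90, miR-146a 2.73, miR-210 2.42, miR-34c 2.31, miR-322 2.12, miR-148a 2.04, miR-34b-5p 1.97, let-7i 1.58, miR-26b 1.36, miR-26a 1.27, miR-106b 1.14, miR-497 1.07, let-7g 1.02, miR-16 0.99, miR-130a 0.98, miR-30e 0.97, miR-21 0.97, miR-107 0.90, miR-195 0.89, miR-196b 0.89, miR-25 0.88, miR-152 0.85, miR-467e 0.83, let-7c 0.70, miR-125a-5p 0.69, miR-467a 0.64 and miR-500 0.44. The difference below 0 was miR-221, at -1.06. Both arrays of at least 1 of the 4 groups lay at the floor for miR-146a, miR-146b, miR-34c, miR-34b-5p, miR-210, miR-152, miR-195, miR-497, miR-467a and miR-467e, so the floor sets part of these values. miR-146a, miR-195, miR-497 and miR-467a were at the floor on all 4 KO arrays, and their values say nothing of a KO response. The median over all tested miRNAs was 0.49, a value whose sign changed with the processing, and WT and KO arrays lay in different rows of each slide, so genotype and slide row cannot be told apart.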

How the results depend on the processing

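The 45 calls at 12 h in WT cells became 0 with normexp background correction (2 at an unadjusted p under 0.05), 3 with the software's total gene signal, 7 with the deposited table, 0 with the 75th percentile over all miRNAs (9 unadjusted), 3 with median scaling, 5 with quantile normalization, 23 with no filter, 27 with the 4 arrays alone, 28 with the scaling without discordant miRNAs and 13 with normexp on the arrays compared only; the last and the scaling without discordant miRNAs were chosen after seeing the data. Leaving out 1 array gave 19 to 61 calls. No scaling (36), both other floors (39 and 38), the stricter filter (31 of 97 tested), a trended spread (43), array weights (50) and the scan run as a random block (44) were within 1.5 times the count. With the replicate block 51 were called, which held all 45.

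The 33 calls of the genotype difference became 0 with normexp in either form (2 and 1 unadjusted), 1 with the total gene signal, 1 with the deposited table, 0 with the 75th percentile over all miRNAs (8 unadjusted), 3 with the median, 2 with quantile normalization, 13 without scaling, 21 with the stricter filter and 6 with no filter, and 10 to 48 without 1 array; the replicate block gave 33. The cause of these changes was not tested.

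The WT difference at 12 h turned above 0 for 12 of the 45 called miRNAs. With normexp, in both forms alike, miR-152 was at 0.013, miR-30b 0.023, miR-320 0.037, miR-362-3p 0.066, miR-467a 0.0097, miR-467e 0.0074 and miR-500 0.028. With the total gene signal, miR-143 was at 0.53, miR-148a 0.57, miR-152 2.13, miR-320 0.15, miR-362-3p 0.31, miR-467b 0.73, miR-652 0.66 and miR-93 0.56. With the deposited table miR-143 was at 0.31, miR-148a 0.35, miR-152 1.91, miR-362-3p 0.089, miR-467b 0.51, miR-652 0.44 and miR-93 0.34. Some of these lay near the floor in untreated WT cells, such as miR-467e (-4.31 and -4.33). Others did not, such as miR-93 (-1.86 and -2.02). The cause of these turns was not tested.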
